A study of Mus musculus with 5 samples.

Results

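The constant segments of the T cell receptor gamma and delta chains (Tcrg-C1, Tcrg-C2, Tcrg-C4 and Trdc), the type 17 cytokine genes Il17a and Il17f and the transcription factor gene Rora were followed through single T cells of the mouse brain. These 7 genes were taken by name from 52542 gene rows, of which 15952 had a count in the cells kept. T cells from brain parenchyma without choroid plexus were sorted 1 per well by the surface markers CD45 and T cell receptor beta chain, without CD11b, and their RNA was counted as unique molecular identifiers (UMIs, 1 per captured RNA molecule). All 5 mice carried loxP-flanked glucocorticoid receptor alleles (strain label Grl1loxP/loxP), were foot-shocked and were sampled on day 14 after the stress. In 3 of them (TAT-CRE 207, 208 and 215, aged 18, 18 and 19 weeks) a cell-permeable Cre recombinase, TAT-CRE, had been injected into the brain ventricles, and in 2 (PBS 216 and 218, aged 19 and 16 weeks) PBS had been injected. The stated aim was to lower the receptor at the choroid plexus. Which cells the injected recombinase entered is not stated in the labels, and each library was taken as 1 mouse.

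Most T cells carry a receptor of an alpha and a beta chain, while a small lineage carries a gamma and a delta chain in its place. In the mouse, gamma-chain loci rearrange early in the thymus, and their transcripts can be found in alpha-beta T cells as well, so that the delta chain together with the gamma chain marks the gamma-delta lineage. The type 17 program, in which nuclear receptors such as RORa drive the cytokines IL-17A and IL-17F, is known in CD4 helper cells and in gamma-delta T cells, which are a source of IL-17 at the borders of the brain. A sort on the beta chain would remove most gamma-delta T cells.

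The gamma-chain genes are near copies of each other, which limits how far a short read can tell them apart. Their positions are given on mouse build GRCm38 (mm10) from the GENCODE M21 annotation. Tcrg-C1 lies at chr13:19214103-19217024 on the plus strand, Tcrg-C2 at chr13:19304649-19307551 on the minus strand and Tcrg-C4 at chr13:19344558-19352756 on the plus strand, all annotated as receptor constant genes. The first 90 bases of the first, protein-coding constant exon are shown because they display this likeness, together with the fourth copy Tcrg-C3. Capitals mark the 14 positions at which at least 1 of the 4 sequences differs.
Tcrg-C1: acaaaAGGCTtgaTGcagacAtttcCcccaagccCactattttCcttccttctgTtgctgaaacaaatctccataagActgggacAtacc
Tcrg-C2: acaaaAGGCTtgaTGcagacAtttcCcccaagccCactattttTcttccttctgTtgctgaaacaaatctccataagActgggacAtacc
Tcrg-C3: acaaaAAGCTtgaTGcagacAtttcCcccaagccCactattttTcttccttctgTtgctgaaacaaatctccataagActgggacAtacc
Tcrg-C4: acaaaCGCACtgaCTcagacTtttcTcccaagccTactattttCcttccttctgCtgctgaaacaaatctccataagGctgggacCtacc
They start at chr13:19214103-19214192, chr13:19307462-19307551, chr13:19260885-19260974 and chr13:19344558-19344647 in that order, Tcrg-C2 being read from the minus strand. Over the 330 bases of that exon Tcrg-C1 and Tcrg-C2 were 97.3% identical, and Tcrg-C4 was 82.1% identical to Tcrg-C1 and 81.5% to Tcrg-C2. The longest exact stretch that the whole transcripts shared was 104 bases between Tcrg-C1 and Tcrg-C2 and 29 bases between Tcrg-C1 and Tcrg-C4. Tcrg-C3 shared a stretch of 122 bases with Tcrg-C1 and of 95 bases with Tcrg-C2. Counts of Tcrg-C1, Tcrg-C2 and Tcrg-C3 are therefore uncertain as to which copy they came from. Tcrg-C1, Tcrg-C2 and Tcrg-C4 were also summed as the gamma chain. Trdc lies at chr14:54142851-54148868 on the plus strand, Rora at chr9:68653786-69388246 on the plus strand, Il17a at chr1:20730905-20734496 on the plus strand and Il17f at chr1:20777146-20790617 on the minus strand. The transcripts of Il17a and Il17f shared no exact stretch over 11 bases.

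A total of 1482 cells passed the filters, with 3037170 UMIs in all: 311 cells from TAT-CRE 207, 303 from TAT-CRE 208, 298 from TAT-CRE 215, 296 from PBS 216 and 274 from PBS 218. The median cell had 993 to 1953 UMIs in the TAT-CRE mice and 1410 to 2660 in the PBS mice. TAT-CRE 208 stood apart as the shallowest library, with 28.3% of its UMIs in ribosomal RNA genes against 43.9% to 48.0% in the other 4. PBS 218 stood apart in its wells, with 102 under the UMI minimum against 15 to 48 in the other mice and 4 over the mitochondrial limit against 29 to 60. The 384 well barcodes were reused in all 5 libraries by design, and each library had its own amplification batch, so that mouse and amplification cannot be told apart. The cells matched their sort: 1155 of the 1482 cells had a UMI of Trac, Trbc1 or Trbc2, the alpha- and beta-chain constant genes. The 20 empty wells held 1095 UMIs together, 1 of them from Rora and none from the other 6 genes. With so few UMIs, the absence of the 6 genes there carries little information. The same wells held 2 UMIs of Cd8b1, 2 of Trac and 1 each of Cd8a, Trbc1 and Trbc2. How far such UMIs entered the co-detection of these genes in the kept cells was not tested. At the depths of the kept cells, a cell without a UMI of a gene may still express it.

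The gamma chain was found in about 1 cell in 10, mostly as Tcrg-C2. Its 3 genes gave 388 UMIs in 145 of 1482 cells (9.78%, exact 95% binomial interval 8.32 to 11.4%; this and the other intervals cover counting error only). Tcrg-C2 gave 262 UMIs in 106 cells, Tcrg-C4 70 UMIs in 22 cells and Tcrg-C1 56 UMIs in 31 cells. Most positive cells had 1 of the 3 genes: 93 cells had Tcrg-C2 alone, 22 had Tcrg-C1 alone and 16 had Tcrg-C4 alone, while 8 had Tcrg-C1 and Tcrg-C2, 5 had Tcrg-C2 and Tcrg-C4 and 1 had Tcrg-C1 and Tcrg-C4. Tcrg-C2 was found in 25.8% of Tcrg-C1 cells (8 of 31) against 6.75% of the others, and in 22.7% of Tcrg-C4 cells (5 of 22) against 6.92% of the others. The fourth copy, Tcrg-C3, gave 1 UMI. Positive cells had a median of 2086 UMIs against 1604 in cells without a gamma-chain UMI; they were deeper in TAT-CRE 207, TAT-CRE 208 and PBS 216, but not in TAT-CRE 215 (1549 against 1604) or PBS 218 (2656 against 2664). In cells with a Cd4 UMI and none of Cd8a or Cd8b1, 3 of 85 had a gamma-chain UMI.

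Positive cells held a few UMIs each. A cell with a Tcrg-C1 UMI had 1.81 ± 1.38 UMIs of it (SD over 31 cells), a cell with Tcrg-C2 had 2.47 ± 1.5 (106 cells) and a cell with Tcrg-C4 had 3.18 ± 3.29 (22 cells). Of the cells with Tcrg-C2, 70 had 2 UMIs or more, and the highest had 8. Rora, which encodes RORa, gave 247 UMIs in 69 cells with 3.58 ± 2.73 UMIs per positive cell. Il17a gave 41 UMIs in 10 cells with 4.10 ± 3.03 per positive cell, and Il17f gave 21 UMIs in 12 cells with 1.75 ± 1.36 per positive cell. Among the 8202 genes found in 10 to 200 cells the median was 2.39 UMIs per positive cell. Of those genes 99.4% stood at or below Il17a and 96.5% at or below Rora, while 22.0% stood at or below Tcrg-C1 and 20.5% at or below Il17f. Il17a and Rora were thus concentrated in few cells, and Tcrg-C1 and Il17f mostly appeared as single UMIs.

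**Figure D1:**
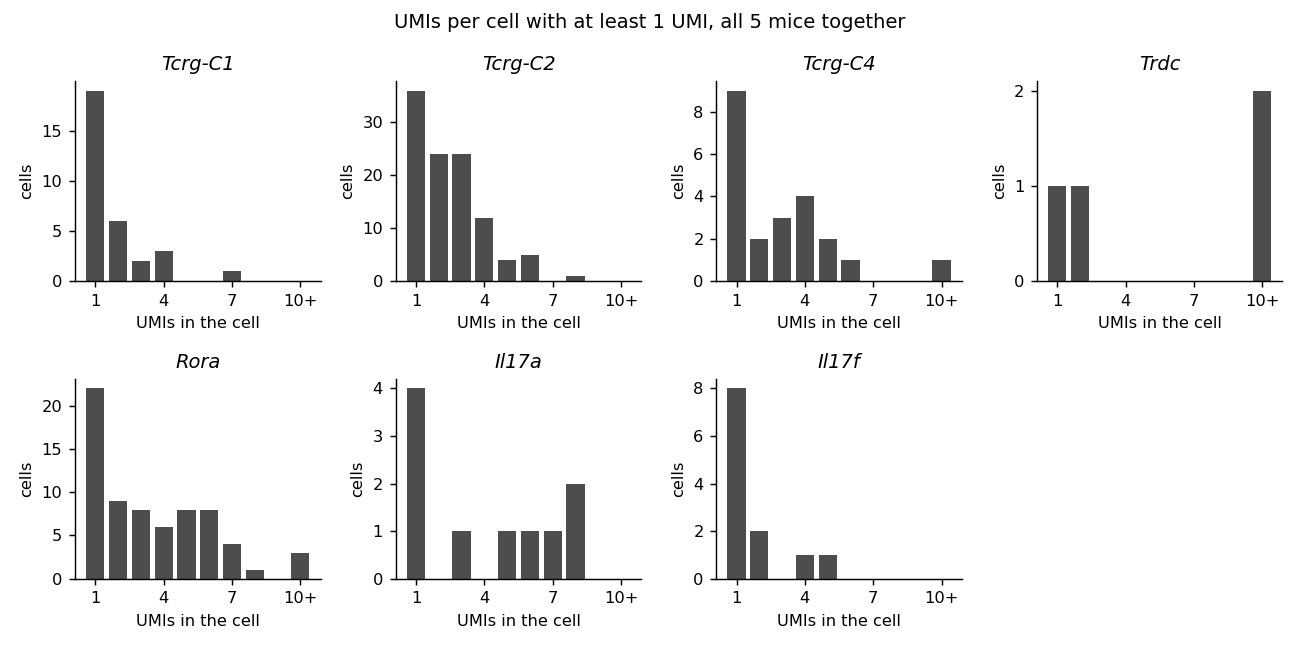
Number of cells (vertical axis) by the number of UMIs of the gene in the cell (horizontal axis, with 10 and more in the last bar), for each gene and all 5 mice together. Single UMIs are the most frequent class for every gene with over 4 positive cells, Il17a cells split into 4 with 1 UMI and 6 with 3 or more, and 2 of the 4 Trdc cells lie at 10 or more.

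The delta chain was almost absent. Trdc gave 26 UMIs in 4 cells, with 13, 2 and 1 UMIs in 3 cells of PBS 216 and 10 UMIs in 1 cell of PBS 218. All 4 cells had a UMI of Trac or Trbc2, 2 had a Cd8b1 UMI and 1 of these also had 2 UMIs of Cd4. None of the 4 had a UMI of Tcrg-C1, Tcrg-C2, Tcrg-C4, Rora, Il17a or Il17f. With 4 cells, and a gamma-chain UMI in 9.81% of the others, these zeros carry little information. A count of 0 in the 145 gamma-chain-positive cells allows a share with a Trdc UMI of up to 2.07% (3 cells of 145). The Trdc locus lies inside the alpha-chain locus.

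Other genes of the gamma-delta receptor and lineage were as sparse. Of 12 receptor genes listed, 11 had a row and 3 had a UMI: Trgv2, a gamma-chain variable segment, with 38 UMIs in 12 cells, Trdv5 with 2 and Tcrg-C3 with 1. The other variable segments with a row (Tcrg-V3 to Tcrg-V7, Trdv1, Trdv2-2 and Trdv4) were at 0. Trgv2 was found in 4 cells of TAT-CRE 215, 5 cells of PBS 216 and 3 cells of PBS 218, and TAT-CRE 207 and 208 had no such cell. It lies at chr13:19336573-19337167 on the minus strand, between Tcrg-C2 and Tcrg-C4, and of its 12 cells 9 also had a Tcrg-C2 UMI and none had one of Tcrg-C4. Of these 12 cells 10 had a Cd8b1 UMI and all 12 had one of Trac, Trbc1 or Trbc2. Of 9 lineage genes 5 had a UMI, and Sox13 and Blk, which mark IL-17-committed gamma-delta cells in the mouse, Cd163l1 and Etv5 were at 0. Maf, a transcription factor also used by helper T cells, gave 204 of the list's 251 UMIs.

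Gamma-chain UMIs sat mostly in cells with a Cd8a or Cd8b1 UMI, the genes of the CD8 co-receptor, in 4 of the 5 mice. Of 145 gamma-chain-positive cells 94 (64.8%, interval 56.5 to 72.6%) had such a UMI, against 561 of 1337 negative cells (42.0%, 39.3 to 44.7%). By mouse the share in positive and in negative cells was 85.7% and 55.8% in TAT-CRE 207, 70.0% and 24.2% in TAT-CRE 208, 65.5% and 40.1% in TAT-CRE 215, 65.8% and 43.4% in PBS 216 and 39.4% and 48.1% in PBS 218. PBS 218, the mouse with most wells under the UMI minimum, went the other way; its part in the result was not tested. Since depth differed between positive and negative cells, each cell was also thinned to 400 UMIs for the Cd8 share: 38.8 ± 13.6% of positive and 22.5 ± 4.15% of negative cells then kept a Cd8a or Cd8b1 UMI (SD over 5 mice). The difference of 16.3 ± 14.9 percentage points did not reach significance (exact sign-flip permutation test over mice, two-sided, p = 0.125; 5 mice allow no p below 0.062). Cd8a alone was higher in positive cells in 5 of 5 mice, 21.9 ± 4.56% against 13.3 ± 3.11% after thinning (exact p = 0.062, the smallest these mice allow), although without thinning PBS 218 was lower, 24.2% against 32.0%.

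**Figure D2:**
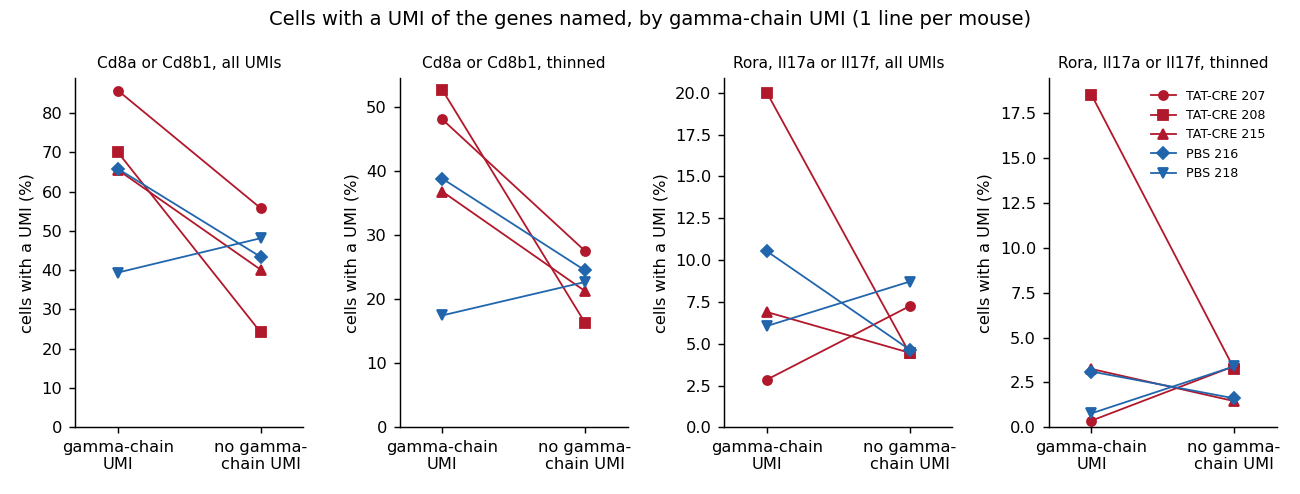
Percent of cells in which a gene named above the panel had a UMI (vertical axis, linear, from 0), in cells with and cells without a gamma-chain UMI (horizontal axis), for all UMIs and after thinning to 400 UMIs per cell; 1 line is 1 mouse. The Cd8a or Cd8b1 share is higher in gamma-chain-positive cells in every mouse except PBS 218, while the share of Rora, Il17a or Il17f goes up in 3 mice and down in 2.

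The Cd8 share differed by gamma-chain gene, but the genes were spread unevenly over the mice, and the difference between genes was not tested. A Cd8a or Cd8b1 UMI was found in 24 of 31 cells with Tcrg-C1, in 70 of 106 with Tcrg-C2 and in 10 of 22 with Tcrg-C4. In TAT-CRE 207, which held 18 of the 31 Tcrg-C1 cells, 17 of the 18 had one. Among the Tcrg-C1 cells of the other mice it was 1 of 2 in TAT-CRE 208, 2 of 3 in TAT-CRE 215, 2 of 4 in PBS 216 and 2 of 4 in PBS 218. In PBS 218 a Cd8a or Cd8b1 UMI was found in 11 of 25 cells with Tcrg-C2 and in 2 of 9 cells with Tcrg-C4. Without the cells positive for Tcrg-C4 alone, PBS 218 stood at 11 of 26 cells, so that it remained the lowest mouse. Requiring 3 or more gamma-chain UMIs gave 44 of 64 cells (68.8%) with a Cd8a or Cd8b1 UMI, and 8 of 16 in PBS 218.

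Read the other way, the summed gamma-chain level was 176, 115 and 192 counts per 1000000 UMIs (CPM) in the Cd8a- or Cd8b1-positive cells of the TAT-CRE mice (207, 208 and 215) and 251 and 85.8 CPM in those of the PBS mice (216 and 218). In the cells without a Cd8a or Cd8b1 UMI it was 47.5, 38.8, 67.1, 111 and 145 CPM in the same order of mice. The level was higher in the Cd8 cells of 4 mice and lower in those of PBS 218. UMIs per positive cell were 2.76 in Cd8-positive and 2.53 in Cd8-negative cells over all mice, with mice going both ways (1.71 against 3.33 in TAT-CRE 208, 2.79 against 2.1 in TAT-CRE 215). Split by Cd4 as well, the level averaged 170 ± 65.5 CPM in cells with Cd8a or Cd8b1 and no Cd4, 88.9 ± 49.8 CPM in cells with none of the 3 genes, 32.0 ± 43.9 CPM in cells with Cd4 only and 18.8 ± 27.4 CPM in cells with Cd4 and a Cd8 gene (SD over 5 mice each). Each neighbouring pair in this order overlapped between mice. Cells with Cd8a or Cd8b1 and no Cd4 (89.7 to 256 CPM) overlapped neither those with Cd4 only (0 to 84.5 CPM) nor those with Cd4 and a Cd8 gene (0 to 60.4 CPM). How many of all genes separate these classes in the same way was not counted. The 2 Cd4 classes held only 2 to 23 cells a mouse, and 3 of the 85 cells with Cd4 only had a gamma-chain UMI. Tcrg-C1 and Tcrg-C4 had no UMI in the 110 cells with a Cd4 UMI; in the 85 cells with Cd4 only this allows a share of up to 3.53%, above the 2.09% and 1.48% over all cells, so a difference was not detectable.

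**Figure D3:**
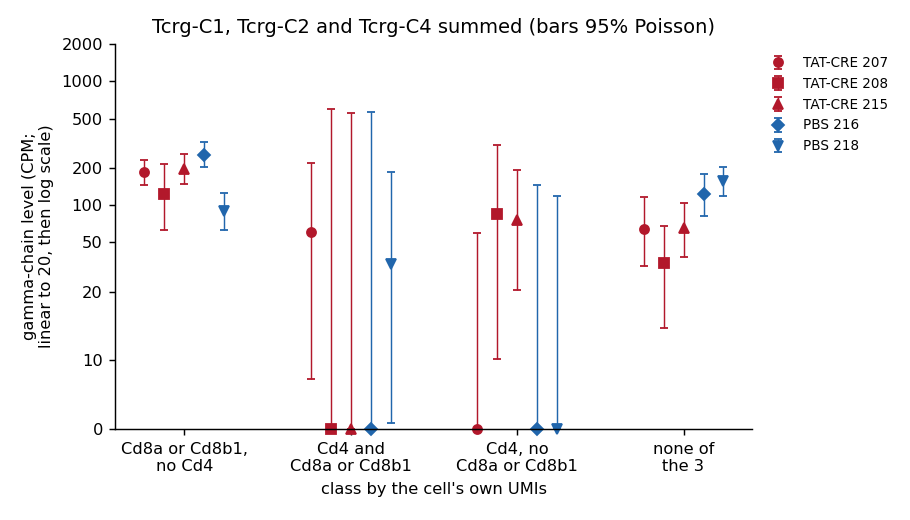
Summed level of Tcrg-C1, Tcrg-C2 and Tcrg-C4 in CPM (vertical axis, linear up to 20 and logarithmic above) in 4 classes of cells by their own Cd4, Cd8a and Cd8b1 UMIs (horizontal axis); points are mice and bars exact 95% Poisson intervals. Cells with Cd8a or Cd8b1 and no Cd4 lie at 89.7 to 256 CPM and cells with none of the 3 genes at 34.1 to 157 CPM, and the intervals of the Cd4 classes are wide because they hold 2 to 23 cells a mouse.

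Gamma-chain UMIs were not detectably tied to type 17 transcripts. Of the 145 gamma-chain-positive cells 11 (7.59%, interval 3.85 to 13.2%) had a UMI of Rora, Il17a or Il17f, against 78 of 1337 negative cells (5.83%, 4.64 to 7.23%). After thinning the share was 5.20 ± 7.55% in positive and 2.63 ± 1.00% in negative cells (SD over 5 mice), higher in 3 of 5 mice, and the difference of 2.57 ± 7.43 percentage points did not pass (exact sign-flip permutation p = 0.688). It rested on TAT-CRE 208, where 2 of 10 positive cells had such a UMI; without that mouse the difference was -0.59 percentage points. Rora was found in 8 of the 145 cells, Il17f in 2 and Il17a in 1. Seen from the type 17 side, 11 of 89 cells with Rora, Il17a or Il17f (12.4%) had a gamma-chain UMI, against 134 of 1393 others (9.62%).

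The type 17 cells themselves were of mixed co-receptor class. Of the 69 Rora-positive cells 34 had a Cd8a or Cd8b1 UMI, 6 had Cd4 only and 29 had none of the 3, and 64 had a UMI of an alpha or beta constant gene. Il17a and Il17f had no cell in common, a zero that carries little information. It allows a share with Il17f of up to 30% of the 10 Il17a cells, against 0.815% of the others. TAT-CRE 208, which held 8 of the Il17a cells, had no Il17f UMI. Of the 22 cells with Il17a or Il17f, 8 had a Cd8a or Cd8b1 UMI, 4 had Cd4 only and 10 had none of the 3. A Trac, Trbc1 or Trbc2 UMI was found in 16 of them, Rora in 2 and Trdc in none. The 3 Il17 cells with a gamma-chain UMI all had Tcrg-C2: 1 cell of TAT-CRE 208 with 8 Il17a, 2 Tcrg-C2 and 2 Cd4 UMIs, and 1 cell each of PBS 216 and 218 with 1 Il17f and 4 Tcrg-C2 UMIs. The cell with most Il17f held 5 UMIs of it with 7 of Rora and 6 of Cd4, in TAT-CRE 207. Other type 17 genes were sparse: Ccr6, a chemokine receptor of type 17 cells, gave 16 UMIs in 7 cells, and Il23r, Il22, Il21, Ccl20 and Il17rc had none.

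Across all genes, cells with a gamma-chain UMI were compared with cells without one by summing counts per mouse and class, with the mouse as a block and the 3 gamma-chain genes left out. Of 2381 genes tested 2 (0.084%) passed edgeR's quasi-likelihood test at an adjusted p of 0.05, 1 higher (0.042%) and 1 lower (0.042%), while 130 had an unadjusted p under 0.05. Ccl5, a chemokine of cytotoxic and memory T cells, stood at 5673, 4576 and 3666 CPM in the positive cells of TAT-CRE 207, 208 and 215 and at 4022 and 3570 CPM in those of PBS 216 and 218, against 3205, 2061, 1954, 2957 and 1383 CPM in the negative cells of the same mice. It was higher in positive cells in each of the 5 mice. Its log2 fold change was 0.75 ± 0.16 (SE; edgeR adjusted p = 0.038), and the median of all tested genes was -0.24.

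Trbc1, 1 of the 2 beta-chain constant genes, was lower in gamma-chain-positive cells. It stood at 150, 449 and 168 CPM in the positive cells of TAT-CRE 207, 208 and 215 and 359 and 251 CPM in those of PBS 216 and 218. These levels rested on 14, 5, 10, 30 and 26 Trbc1 UMIs in that order. In the negative cells Trbc1 stood at 364, 1030, 622, 660 and 458 CPM. The log2 fold change was -1.35 ± 0.28 (edgeR adjusted p = 0.038), lower in 5 of 5 mice. Its near copy Trbc2 did not pass, at -0.14 ± 0.19, nor did the alpha-chain gene Trac, at -0.33 ± 0.26. Both calls were near the threshold: leaving out any 1 mouse ended that of Ccl5 (edgeR adjusted p 0.0688 to 0.525), and that of Trbc1 held only without PBS 218 (0.0433; otherwise 0.0866 to 0.401). DESeq2 kept Ccl5 (adjusted p = 0.00167) and not Trbc1 (0.181), and with no filter on low counts edgeR kept Trbc1 (adjusted p = 0.00427) and not Ccl5 (log2 fold change 0.26, 0.870). Within cells that had a Cd8a or Cd8b1 UMI, a comparison added after seeing the data, Trbc1 passed again (-2.06, edgeR adjusted p = 0.0249) and Ccl5 did not (0.77, edgeR adjusted p = 0.0817).

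The co-receptor and marker genes did not pass one by one. Cd8a stood at 817 ± 183 CPM in positive and 490 ± 89.6 CPM in negative cells (SD over 5 mice; log2 fold change 0.59 ± 0.23, higher in 5 of 5 mice), and Cd8b1 at 819 ± 790 and 396 ± 51.4 CPM (0.33 ± 0.33, higher in 4, but -0.071 without TAT-CRE 208). Cd4 stood at 48.8 ± 74.1 and 119 ± 33.2 CPM (-2.46 ± 0.79, lower in 4). The edgeR adjusted p was 0.866 for Cd8a and Cd4 and 0.959 for Cd8b1. Of the cytotoxic markers 4 of 5 were tested and 1, Ccl5, passed as higher, with a median log2 fold change of 0.67. The tested marker Gzmk was not shifted in the fit, at 199 ± 185 CPM in positive and 162 ± 48.6 CPM in negative cells. Its log2 fold change was -0.022 ± 0.46 (edgeR adjusted p = 0.996), with the level higher in 3 of 5 mice. Nkg7, a granule protein, stood at 774 ± 140 and 467 ± 52.5 CPM (0.59 ± 0.23, edgeR adjusted p = 0.866). The 7 natural killer cell markers, with Klra4 at 0, summed to 203, 0 and 33.6 CPM in the positive cells of the TAT-CRE mice and 359 and 810 CPM in those of the PBS mice, against 130, 96.8, 41.6, 261 and 91.1 CPM in the negative cells of the same mice. They were thus higher in the positive cells of 3 mice, most in PBS 218, and their part in the results was not tested. The naive T cell markers Lef1 (-1.80 ± 0.67) and Tcf7 (-1.02 ± 0.34) did not pass either (edgeR adjusted p = 0.866 each) and stood lower in the positive cells of all 5 mice. Of 23 type 17 genes 6 were tested and none passed (median -0.58), and Rora, a gene outside that list, stood at 147 ± 226 and 83.2 ± 26.4 CPM, higher in 2 of 5 mice, with a fitted log2 fold change of the other sign (-0.50 ± 0.77, edgeR adjusted p = 0.981), which was 0.082 without PBS 218.

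The genes whose pattern was most like the gamma chain, taken as the 5 with the smallest p among those with a positive fitted change over the 5 mice, were Ccl5, Gzmb, Chsy1, Fgl2 and AW112010. Gzmb, the cytotoxic protease granzyme B, stood at 310 ± 204 CPM in positive and 119 ± 112 CPM in negative cells (log2 fold change 1.64 ± 0.48), but lower in those of TAT-CRE 208 (179 against 307 CPM). Chsy1 stood at 251 ± 221 and 65.7 ± 36.5 CPM (1.51 ± 0.54), Fgl2, a secreted fibrinogen-like protein, at 330 ± 189 and 117 ± 29.1 CPM (1.15 ± 0.42), and AW112010 at 888 ± 575 and 429 ± 74.1 CPM (0.67 ± 0.25, higher in 4 of 5 mice). Only Ccl5 of these passed; the edgeR adjusted p of the other 4 was 0.669 for Gzmb and 0.866 for the rest.

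**Figure D4:**
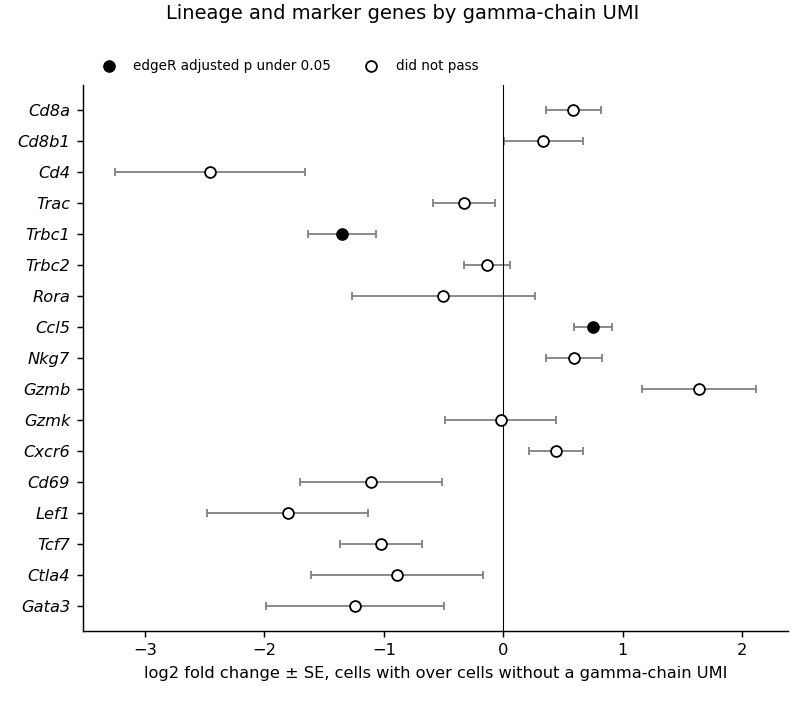
Log2 fold change with its SE (horizontal axis) of lineage and marker genes (vertical axis) between cells with and cells without a gamma-chain UMI, from edgeR on counts summed per mouse and class. Ccl5 (0.75) and Trbc1 (-1.35) are filled because they passed at an adjusted p of 0.05. The other points are open, with Cd8a, Cd8b1, Nkg7 and Gzmb to the right of 0. Cd4, Lef1 and Tcf7 lie to the left, and Gzmk lies at -0.022.

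Cells with a Rora, Il17a or Il17f UMI were compared with the rest in the same way. No gene of 2254 (0%) passed edgeR, 132 had an unadjusted p under 0.05, and DESeq2 called none; edgeR called 1 gene without TAT-CRE 208 and 2 without PBS 218. Tcrg-C2 stood at 101 ± 89.0 CPM in these cells and 84.0 ± 43.6 CPM in the rest (log2 fold change -0.22 ± 0.82, edgeR adjusted p = 0.983), higher in 2 of 5 mice; its mean and its fitted change differ in sign, and without TAT-CRE 207 the fitted change was 0.18. Tcrg-C1, Tcrg-C4 and Trdc did not pass the filter on low counts. Cd8a stood at 354 ± 182 against 542 ± 90.5 CPM, lower in 5 of 5 mice (-0.88 ± 0.29, edgeR adjusted p = 0.683), beside a median of -0.33 over all tested genes.

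Between the TAT-CRE and the PBS mice the members differed mainly mouse by mouse. A gamma-chain UMI was found in 11.3, 3.30 and 9.73% of the cells of the TAT-CRE mice, in the order 207, 208 and 215, and in 12.8 and 12.04% of the cells of the PBS mice, in the order 216 and 218. Both PBS mice lay above the 3 TAT-CRE mice, but how many of all genes separate the groups by share of cells was not counted. TAT-CRE 208, the lowest, was also the shallowest. TAT-CRE 207 and 215 (median 1953 and 1600.5 UMIs per cell) were deeper than PBS 216 (1410). Thinned to 400 UMIs the share was 3.42 ± 1.38% (SD, n = 3) in TAT-CRE mice and 5.05 ± 1.22% (SD, n = 2) in PBS mice, the groups overlapped, and the difference of -1.63 percentage points did not pass (exact permutation test, two-sided, p = 0.4; the smallest p that 3 against 2 mice allow is 0.1). Here and below, fewer cells with a transcript and less transcript per cell cannot be told apart in the summed levels.

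The gamma-chain genes were distributed differently over the mice. Tcrg-C1 stood at 47.7, 13.8 and 8.5 CPM in the TAT-CRE mice and 9.01 and 9.53 CPM in the PBS mice, and 33 of its 56 UMIs came from TAT-CRE 207. Tcrg-C2 stood at 53.4, 35.9 and 111 CPM in the TAT-CRE mice and 151 and 75.1 CPM in the PBS mice. Tcrg-C4 stood at 31.8, 11.04 and 6.80 CPM in the TAT-CRE mice and 27.0 and 29.8 CPM in the PBS mice. The groups overlapped in the level of all 3 genes. In TAT-CRE 207, 16 of the 22 Tcrg-C4 UMIs came from 1 cell, and counted as cells Tcrg-C4 was found in 4, 1 and 2 cells of the TAT-CRE mice and in 6 and 9 of the PBS mice.

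Trdc was the 1 gene of the 7 whose levels in CPM did not overlap between the groups. It had no UMI in the 311, 303 and 298 cells of the TAT-CRE mice, which allows shares of up to 0.965, 0.990 and 1.01%, and stood at 28.8 and 11.9 CPM in PBS 216 and 218 (exact permutation p = 0.1). Of all 15952 genes with a UMI, 7.26% had every TAT-CRE mouse below both PBS mice and 6.91% had every TAT-CRE mouse above both. The share in PBS 216 was 1.01% of cells and that in PBS 218 0.365%, the second under all 3 limits, so a difference was not detectable at this depth. In wells that failed the cell filters Trdc had 1 UMI in TAT-CRE 215 and 1 in PBS 218.

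The Il17a and Il17f counts were carried by few mice, while Rora was found in all 5. Rora stood at 69.3, 124 and 54.4 CPM in the TAT-CRE mice and 72.1 and 97.7 CPM in the PBS mice and was found in 15, 8, 14, 13 and 19 cells in that order. Il17a stood at 8.67, 93.8 and 0 CPM in the TAT-CRE mice and 0 and 1.19 CPM in the PBS mice; 34 of its 41 UMIs came from 8 cells of TAT-CRE 208. Il17f stood at 17.3, 0 and 0 CPM in the TAT-CRE mice and 5.41 and 7.15 CPM in the PBS mice, with 6 of its 12 cells in TAT-CRE 207. The mouse richest in Il17a had no Il17f and the mouse richest in Il17f had 1 cell with Il17a. The exact permutation p was 0.9 for the level of Rora, 0.7 for Il17a and 1 for Il17f, where 3 against 2 mice allow none below 0.1.

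**Figure D5:**
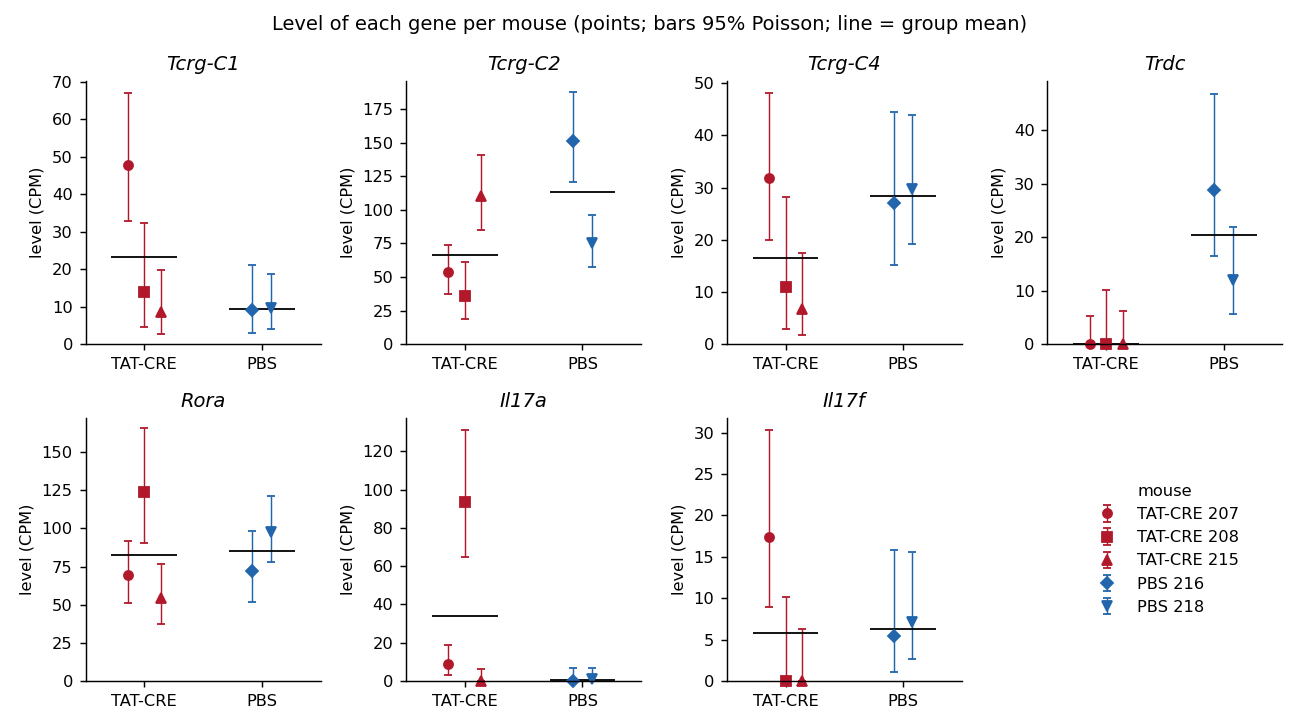
Level of each gene in CPM (vertical axis, linear, from 0) in the 3 TAT-CRE mice (left) and the 2 PBS mice (right); points are mice, bars exact 95% Poisson intervals and lines group means. Trdc is at 0 in all TAT-CRE mice, Tcrg-C1 and Il17f are highest in TAT-CRE 207 and Il17a in TAT-CRE 208.

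Of the 7 genes, Rora, Tcrg-C2 and Tcrg-C4 passed the filter for the test across all genes between TAT-CRE and PBS mice, and none was called. Their log2 fold changes were -0.19 ± 0.37, -0.75 ± 0.52 and -0.78 ± 0.79 (SE; edgeR adjusted p = 0.999 each), beside a median of 0.00 over all tested genes; that of Rora was 0.0063 without PBS 218. Leaving out 1 mouse moved Tcrg-C2 between -1.43 (without TAT-CRE 215) and -0.12 (without PBS 216) and Tcrg-C4 between -1.82 (without TAT-CRE 207) and -0.43 (without TAT-CRE 215). No gene of 6341 (0%) was called, with 239 at an unadjusted p under 0.05 and 2 called by DESeq2. Of the listed type 17 genes 10 of 23 were tested, of the receptor genes 1 of 12 and of the gamma-delta lineage genes 2 of 9, and none passed. Markers of other lymphocytes and of brain cells were measured beside these levels, and their part in them was not tested. The 7 natural killer cell markers, of which Klra4 was at 0, summed to 40.8 to 140 CPM in TAT-CRE mice and 180 to 276 CPM in PBS mice. The 6 markers of type 2 innate lymphoid cells, with Il13 and Il5 at 0, summed to 105 to 174 and 79.3 to 197 CPM, the 5 microglia markers, with P2ry12, Tmem119 and Csf1r at 0, to 1.70 to 74.5 and 32.2 to 84.7 CPM, and the 3 oligodendrocyte markers to 91.0 to 111 and 88.3 to 133 CPM.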

How the data were processed

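The values are UMI counts per gene and well, deposited by the authors without normalization; bcl2fastq 2.15.0.4 and build mm10 served, per the submitters' processing notes. Which aligner and annotation they used, and whether strand was read, is not given in the sources used here. Wells with 1 cell per the deposited plate table, 400 or more UMIs outside spike-ins and at most 30% mitochondrial UMIs were kept. Of 1900 such wells 223 fell under the UMI minimum and 195 over the mitochondrial limit. CPM are per 1000000 UMIs of the mouse or class. Shares were compared as the expected share with a UMI after thinning each cell to 400 UMIs, with classes set from all UMIs of the cell. Sums per mouse, or per mouse and class with the mouse as a block, were tested with edgeR 4.0.16 (R 4.3.3; TMM, filterByExpr, quasi-likelihood F test, Benjamini-Hochberg adjustment over all tested genes), with DESeq2 1.42.0 as an alternative; the code was tested on simulated data. Shares and levels were tested by exact permutation (scipy 1.17.1, Python 3.11.15). Doublets were not called, since wells were sorted as 1 cell each. p-values measure the spread between libraries, each taken as 1 mouse. The 7 genes and the lists were chosen with earlier results of these data known. Genes named are the 7, Cd8a, Cd8b1, Cd4 and the alpha and beta constant genes, up to 5 called genes a direction, the 5 most like the gamma chain, and list members as counts or where a value is discussed. Of the lists used, those no comparison rests on are given in the closing section. Tcrg-V2 was matched as Trgv2 and Tcrg-V1 had no row. Some listed genes are not reported here. Sequences and positions came from GENCODE M21.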

Additional observations from a re-analysis of the deposited data

Results flagged for a closer look

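Wells left out by the cell filters held over 3 UMIs of Tcrg-C1, Tcrg-C2 and Il17a, of which the empty wells had none. Trdc gave 2 UMIs there, under that floor, and Rora 20, while the empty wells held 1 Rora UMI. The 418 wells with 1 cell that failed the UMI minimum or the mitochondrial limit gave 15 UMIs of Tcrg-C2 in 8 wells, 6 of Tcrg-C1 in 5 wells and 5 of Il17a in 1 well, of 287733 UMIs in all. The Tcrg-C1 UMIs came from TAT-CRE 207 and PBS 216, and the Il17a UMIs from 1 well of TAT-CRE 208, the mouse with most Il17a among the kept cells. No group had enough mice to be searched for outlying samples.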

How the results depend on the processing

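Counts of called genes were small and moved with the settings. Between TAT-CRE and PBS mice 0 genes became 2 with DESeq2 and 8 with no filter on low counts, and stayed at 0 without any 1 mouse. For gamma-chain-positive against negative cells 2 became 1 with DESeq2, with its size factors, with 1000 UMIs or more per cell and, added after seeing the data, in cells with a Cd8a or Cd8b1 UMI; it became 0 without ribosomal RNA genes and with 2 or more UMIs to be positive, 18 with no filter, and ranged from 0 to 1 without 1 mouse. Ccl5 was lost without ribosomal RNA genes (edgeR adjusted p = 0.121), in Cd8 cells, with 2 or more UMIs and with no filter, and Trbc1 with DESeq2, with its size factors (0.0760), with 1000 UMIs or more (0.0765), without ribosomal RNA genes (0.0687) and with 2 or more UMIs. For cells with a Rora, Il17a or Il17f UMI 0 became 69 with no filter, 2 without ribosomal RNA genes and 1 with 2 or more UMIs, and ranged from 0 to 2 without 1 mouse. The share differences kept their sign in 31 of 32 alternatives; leaving out 1 mouse gave -2.49 to -0.77 percentage points for the gamma chain between TAT-CRE and PBS mice, 11.3 to 21.7 for Cd8a or Cd8b1 and -0.59 to 3.98 for Rora, Il17a or Il17f, the last without TAT-CRE 208. Log2 fold changes of single genes turned in sign 7 times. Without 1 mouse, Rora ranged from -0.39 to 0.0063 (without PBS 218) between TAT-CRE and PBS mice and from -1.18 to 0.082 (without PBS 218) in gamma-chain-positive cells, Tcrg-C2 from -0.57 to 0.18 (without TAT-CRE 207) in type 17 cells, Trbc2 from -0.26 to 0.0092 (without TAT-CRE 208) and Cd8b1 from -0.071 (without TAT-CRE 208) to 0.81. Cd8b1 was also -0.15 with no filter and -0.072 in Cd8 cells; the cause was not tested. No paired analysis was possible because TAT-CRE and PBS mice have no replicate number in common; mouse was a block within the class comparisons. Few UMIs per cell limit all co-detection.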

Other observations

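Lists that no comparison above rests on gave these summed levels. The 6 alpha-beta T cell markers summed to 3580 ± 608 CPM in TAT-CRE mice and 3612 ± 393 CPM in PBS mice (SD, n = 3 and 2), and the 2 CD8 genes to 964 ± 191 and 912 ± 58.9 CPM. The 2 CD4 T cell markers summed to 172 ± 59.8 and 125 ± 15.8 CPM, the 4 regulatory T cell markers to 222 ± 30.5 and 142 ± 55.5 CPM and the 4 markers of MAIT or NKT-like cells to 114 ± 87.5 and 94.8 ± 0.96 CPM. The 4 resident memory markers summed to 847 ± 201 and 797 ± 8.60 CPM and the 5 cytotoxic markers to 3540 ± 946 and 3185 ± 1194 CPM. Choroid plexus markers, with Kl at 0, summed to 8.31 ± 3.23 and 7.79 ± 4.27 CPM.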
